A study of Arabidopsis thaliana with 24 samples.

Results

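In shoots and roots, 16554 Arabidopsis genes were measured under sulfur deficit (-S) and in sufficient sulfur (nS). For 16 genes, 12 of them described here, the -S signal was lower by at least 0.8 on the log2 scale in all 4 combinations of organ and line. Those combinations were shoots and roots of the NBR1-overexpressing line OX.7.5 and shoots and roots of its parent Col-0. The genes were selected on these differences of group means, taken for the brightest probe set of each gene, and 16 genes met the rule (0.0967% of the genes). EXPB1, EXPB3, SWEET16 and AT5G24490 were set aside by symbol or locus. The remaining 12 are AT3G46880, AT3G07310, AT3G05900, AT2G24580, AT1G31710, AT4G12980, AT1G17430, DJ1F (AT3G54600), AT5G48900, CHLM (AT4G25080), AT3G43670 and ALN (AT4G04955), in order of their mean difference. Because the genes were chosen by their -S differences, those differences are given below as a description, with no test.

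The 24 Affymetrix Arabidopsis Gene 1.1 ST arrays covered 8 groups of 3 biological replicates: -S and nS, in OX.7.5 and Col-0, in shoots and roots of plants aged 33 days. OX.7.5 is a single transgenic line in which NBR1, a selective autophagy cargo receptor, carries a TAP tag at its C-terminus and is driven by the constitutive 35S promoter. Col-0 carries no transgene, and the methods give 4 days of -S. The sample descriptions speak of pots of soil whereas the methods describe hydroponic boxes, and nS was taken to mean every sample with no mention of low sulphate in its label.

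Sulfur enters plants as sulfate, which is reduced and built into cysteine, and from there into methionine, glutathione and the methyl donor S-adenosylmethionine. Plants short of sulfate commonly slow growth, lose chlorophyll and recycle cell constituents, partly through autophagy. Among the 12 genes, 3 carry a gene name in the annotation. CHLM encodes magnesium-protoporphyrin IX methyltransferase, a chloroplast enzyme of chlorophyll synthesis that takes its methyl group from S-adenosylmethionine. ALN encodes allantoinase, which opens the ring of allantoin so that the nitrogen of degraded purines can be recovered, and DJ1F belongs to the DJ-1 family of proteins. The other 9 genes are listed by locus only, and no role is given to them here. By locus name, 2 of the 12 genes lie on chromosome 1, 1 on chromosome 2, 5 on chromosome 3, 3 on chromosome 4 and 1 on chromosome 5, and no pair of them are immediate neighbours.

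The median signal of an array was 3.92 to 3.97 for shoot samples but 2.58 to 2.63 for root samples. The scales of the organs thus look to have been set apart, and levels were compared only within an organ. Differences between groups were compared across organs too. Whether the separate scales affect the size of those differences was not tested. Replicate arrays of a group correlated at r of 0.973 to 0.991 over probe sets. NBR1 has no probe set of its own in the annotation used, so the overexpression could not be checked on these arrays. Of 12 leaf markers RCA and PRK were measured, and their signals stood at percentiles 99.6 and 97.1 of all genes in shoots and 47.3 and 24.9 in roots. Of 16 root markers PYK10 and EXPA7 were measured, and these stood at percentiles 90.6 and 22.9 in shoots and 99.8 and 74.3 in roots. The sample numbers of nS and -S arrays form 2 blocks that do not mix, and a difference in handling between the blocks, if any, cannot be told apart from -S. In whole organs, fewer cells of a type and less RNA per cell cannot be told apart either.

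Every one of the 12 genes had all 3 -S arrays below all 3 nS arrays in all 4 comparisons, 48 of 48 pairs of gene and comparison. Over all genes this separation held for 15.1% in OX.7.5 shoots, 18.1% in Col-0 shoots, 17.9% in OX.7.5 roots and 18.5% in Col-0 roots, and in all 4 together for 1.12%. The choice of the genes makes such separation likely, so nothing is read from it. The differences among the 12 ranged from -1.57 to -0.86 in OX.7.5 shoots and from -1.98 to -0.87 in Col-0 shoots. In roots they ranged from -2.07 to -0.87 in OX.7.5 and from -3.59 to -0.84 in Col-0. Their medians were -1.01 and -1.39 in OX.7.5 and Col-0 shoots and -1.13 and -1.17 in OX.7.5 and Col-0 roots, while the medians of all genes lay between -0.06 and 0.00. Genes at -0.8 or lower made up 2.92% of all genes in OX.7.5 shoots, 5.6% in Col-0 shoots, 4.19% in OX.7.5 roots and 4.24% in Col-0 roots. Most of these genes met the threshold in 1 comparison (1084) or 2 comparisons (764), and 43 met it in 3. Genes higher by as much in all 4 comparisons numbered 112.

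**Figure D1:**
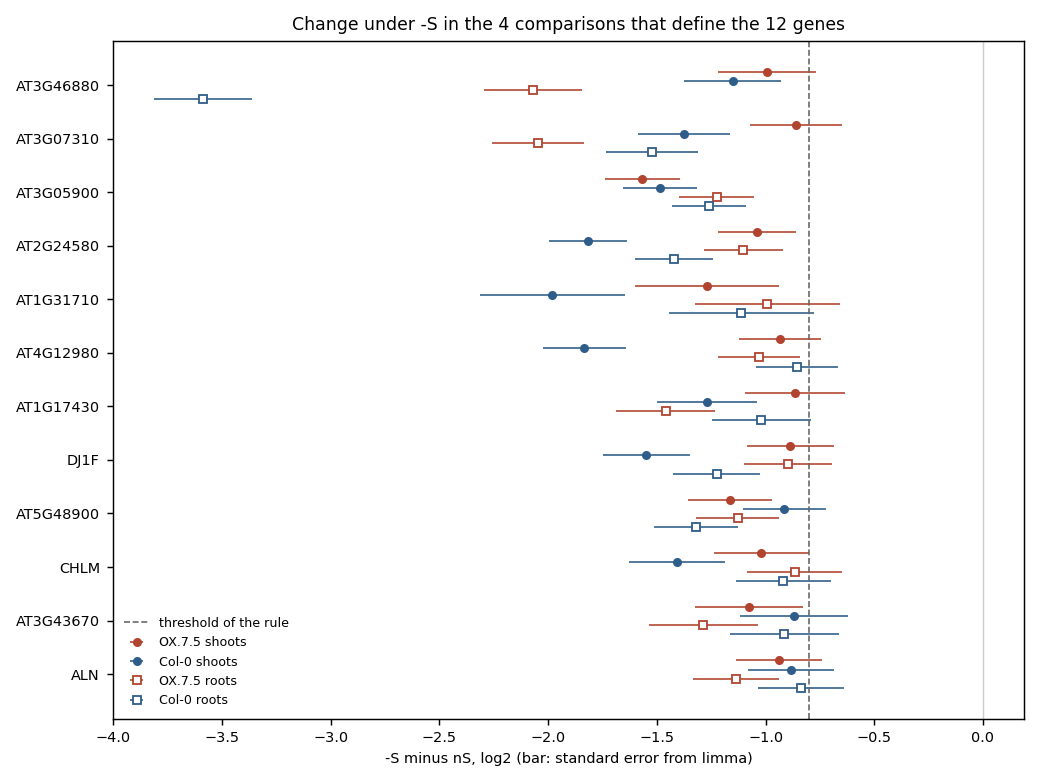
Difference -S minus nS (log2, x axis; bars are standard errors from limma) of the 12 genes (y axis, ordered by their mean over the 4 comparisons) in shoots (filled circles) and roots (open squares) of OX.7.5 (red) and Col-0 (blue). All points lie left of the dashed threshold at -0.8, and AT3G46880 in Col-0 roots stands apart at -3.59.

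The 12 genes divided evenly by organ: 6 had the larger mean difference in shoots and 6 in roots. AT3G46880, the gene with the lowest mean difference (-1.95), was lowest in roots. Its log2 signal on the 3 arrays was 1.31, 1.15 and 0.74 in OX.7.5 roots in -S, against 2.87, 3.31 and 3.22 in OX.7.5 roots in nS. In Col-0 roots it was 1.17, 1.06 and 1.48 in -S, against 4.65, 5.32 and 4.50 in nS. The -S arrays of both lines thus sat at a like level, while the nS arrays of Col-0 lay well above those of OX.7.5. The nS over -S ratio was 4.19 in OX.7.5 roots and 12 in Col-0 roots. In shoots the values were 3.19, 2.52 and 2.47 in OX.7.5 in -S, against 3.73, 3.84 and 3.59 in OX.7.5 in nS. Col-0 shoots had 2.87, 2.92 and 2.42 in -S, against 3.90, 3.55 and 4.21 in nS. Neither pair of shoot groups overlapped, and the differences there were -0.99 in OX.7.5 and -1.15 in Col-0 (SE 0.22). All the -S values of AT3G46880 were below their array's median, where a signal can approach the background of the array, and the deposited values carry no detection calls, so the size of its ratios is uncertain.

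AT3G07310 also had its larger differences in roots, and there OX.7.5 had the larger one. OX.7.5 roots gave 3.64, 3.67 and 4.05 in -S, against 5.60, 6.24 and 5.66 in nS, a difference of -2.05 (SE 0.21). Col-0 roots gave 4.13, 3.95 and 3.32 in -S, against 5.19, 5.21 and 5.55 in nS, a difference of -1.52. In shoots the order of the lines was the other way round. The difference was -0.86 in OX.7.5 shoots, whose -S arrays read 5.51 to 5.96 and whose nS arrays read 6.28 to 6.91. It was -1.37 in Col-0 shoots, with 5.38 to 5.83 in -S and 6.84 to 6.97 in nS.

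AT3G05900 had the most even differences of the genes with a mean below -1.2, from -1.57 in OX.7.5 shoots to -1.22 in OX.7.5 roots. It is the only one of the 12 with a second probe set of its own. That other probe set was dimmer, with a mean log2 signal of 3.40 against 5.55 for the one used, and its differences were only -0.28 and -0.18 in OX.7.5 and Col-0 shoots and -0.37 and -0.48 in OX.7.5 and Col-0 roots. With the mean of both probe sets AT3G05900 just missed the threshold, in OX.7.5 roots (-0.796).

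AT2G24580, AT1G31710, AT4G12980 and DJ1F had their largest differences in Col-0 shoots. AT2G24580 read 2.34, 2.49 and 3.10 in OX.7.5 shoots in -S, against 3.74, 3.51 and 3.80 in nS. In Col-0 shoots it read 2.68, 2.58 and 2.69 in -S, against 4.77, 4.14 and 4.50 in nS. The -S shoots of the lines overlapped and the nS shoots did not, with differences of -1.04 in OX.7.5 and -1.82 in Col-0 (SE 0.18). Roots gave 1.75, 1.65 and 1.58 in OX.7.5 in -S, against 2.86, 2.81 and 2.62 in OX.7.5 in nS. Col-0 roots gave 1.37, 1.34 and 1.39 in -S, against 2.99, 2.97 and 2.41 in nS. All root and shoot -S arrays of AT2G24580 were below their array's median.

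AT1G31710 had the widest spread between replicates of the 12 genes, in Col-0 shoots in -S. OX.7.5 shoots read 6.40, 6.34 and 6.22 in -S, against 7.60, 7.76 and 7.40 in nS. Col-0 shoots read 6.73, 5.56 and 7.85 in -S, against 9.09, 8.96 and 8.03 in nS, so that the highest -S array lay just under the lowest nS array. The differences were -1.27 and -1.98 (SE 0.33) in OX.7.5 and Col-0 shoots, and -0.99 and -1.11 in OX.7.5 and Col-0 roots, where replicates were closer. For AT4G12980 the difference was -0.93 in OX.7.5 shoots and -1.83 in Col-0 shoots (SE 0.19), and -1.03 and -0.86 in OX.7.5 and Col-0 roots. The OX.7.5 shoots of AT4G12980 averaged 6.05 in -S and 6.98 in nS, and its Col-0 shoots 5.70 in -S and 7.54 in nS.

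DJ1F, the DJ-1 family gene, read 6.04, 5.88 and 6.37 in OX.7.5 shoots in -S, against 6.83, 6.93 and 7.19 in nS. In Col-0 shoots it read 5.98, 5.52 and 5.34 in -S, against 7.44, 6.99 and 7.05 in nS. These groups were well apart, with differences of -0.89 in OX.7.5 and -1.55 in Col-0 (SE 0.20). Roots had 3.51, 3.46 and 3.60 in OX.7.5 in -S, against 4.27, 4.25 and 4.76 in OX.7.5 in nS. Col-0 roots had 3.68, 3.56 and 2.86 in -S, against 4.63, 4.50 and 4.64 in nS, and again no array of 1 supply reached those of the other.

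CHLM lay well above the array medians in shoots and near them in roots. Its log2 signal in shoots was 7.30, 7.09 and 7.59 in OX.7.5 in -S, against 8.50, 8.23 and 8.32 in OX.7.5 in nS. Col-0 shoots read 7.21, 7.18 and 7.13 in -S, against 8.61, 8.46 and 8.67 in nS. The nS over -S ratio was 2.03 in OX.7.5 shoots and 2.65 in Col-0 shoots, and the groups were clearly apart. In roots the values were 2.02, 2.01 and 2.11 in OX.7.5 in -S, against 2.93, 3.13 and 2.69 in OX.7.5 in nS. Col-0 roots read 2.28, 1.83 and 1.84 in -S, against 2.59, 3.70 and 2.42 in nS. All root -S arrays and 2 of the 3 Col-0 nS root arrays were below their array's median, so the root ratios of CHLM (1.82 in OX.7.5 and 1.89 in Col-0) rest on weak signals, and a single nS array lifted the Col-0 mean.

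ALN had the mean difference nearest to 0 of the 12 (-0.95) and the narrowest range over the 4 comparisons. Its log2 signal was 5.03, 4.82 and 4.83 in OX.7.5 roots in -S, against 6.06, 6.09 and 5.93 in nS. Col-0 roots read 4.93, 5.26 and 5.36 in -S, against 6.18, 5.87 and 6.01 in nS. These root groups did not overlap in either line, with differences of -1.14 in OX.7.5 and -0.84 in Col-0 (SE 0.20). Shoots read 4.38, 3.76 and 3.91 in OX.7.5 in -S, against 4.91, 4.93 and 5.02 in OX.7.5 in nS. Col-0 shoots read 4.33, 4.28 and 4.04 in -S, against 5.35, 4.46 and 5.49 in nS, where 1 nS array lay close to the -S arrays. The differences in shoots were -0.94 in OX.7.5 and -0.88 in Col-0.

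The remaining 3 genes differed by -1.46 to -0.86. AT1G17430 was lower by the most in OX.7.5 roots (-1.46, SE 0.23), with 3.64 to 4.24 in -S and 5.33 to 5.42 in nS. Its OX.7.5 shoots in -S were spread from 5.57 to 6.96, against 7.19 to 7.25 in nS. AT5G48900 ranged from -1.32 in Col-0 roots to -0.91 in Col-0 shoots (SE 0.19). AT3G43670 ranged from -1.29 in OX.7.5 roots to -0.87 in Col-0 shoots (SE 0.25).

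**Figure D2:**
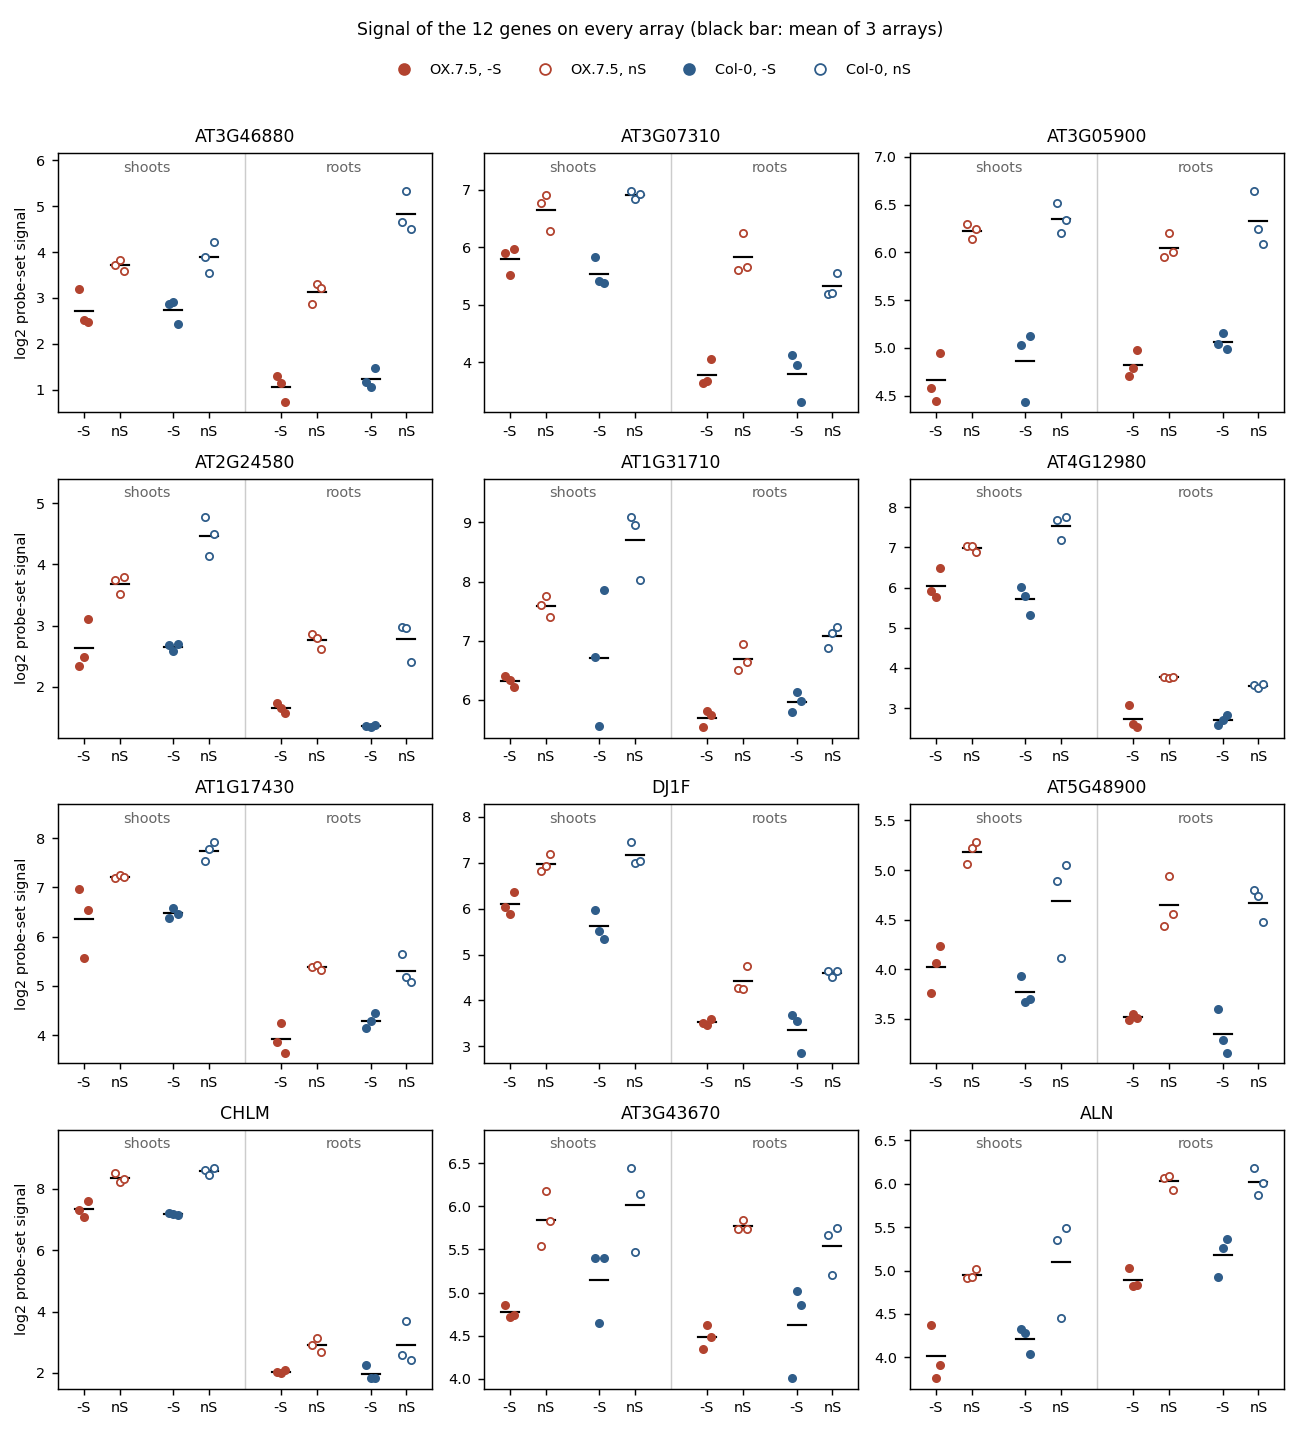
Log2 probe-set signal (y axis, a scale of its own in each panel) of each of the 12 genes on all 24 arrays, in -S (filled) and nS (open), for OX.7.5 (red) and Col-0 (blue), shoots left and roots right of the grey line, with black bars at the means of 3 arrays. In all panels the filled points of a line and organ lie below the open ones, and the open points of AT3G46880 in roots are lower in OX.7.5 (2.87 to 3.31) than in Col-0 (4.50 to 5.32).

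The threshold lay within a run of similar genes. Just inside, by the highest of the 4 differences, were ALN (-0.84), AT4G12980 (-0.86), AT3G07310 (-0.86), AT1G17430 (-0.86) and CHLM (-0.87). Just outside were AT5G24165 (-0.77), AT4G27700 (-0.76), AT2G43550 (-0.74), AT5G62360 (-0.73) and AT5G66490 (-0.72). When each of the 24 arrays was left out in turn, 8 to 15 genes met the rule, those set aside by symbol or locus not counted. Of the 12, 4 met it each time. ALN missed it without any 1 of 5 arrays, DJ1F and AT3G43670 without any 1 of 3. The low count of 8 came without OX.7.5 shoots -S replicate 2, when AT3G07310, DJ1F, AT4G12980 and AT1G17430 missed it.

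The rule asked the same of both lines and did not compare them. The difference between the lines at a given sulfur supply was tested with limma over all 16554 genes. The same arrays had entered the rule, so these tests are not independent of the choice of the genes. Their p-values are not adjusted for that choice. Where the lines were alike in -S, the nS difference nearly repeats the gap between their responses, as for AT3G46880 in roots (-1.69 and 1.52). In nS roots AT3G46880 was lower in OX.7.5, with a mean of 3.13 against 4.82 in Col-0, and in nS shoots AT2G24580 was lower in OX.7.5, with a mean of 3.68 against 4.47 in Col-0. No other gene of the 12 passed an adjusted p of 0.05 in these comparisons. In -S no gene of the 12 passed in either organ.

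AT3G46880 in nS roots differed by -1.69 (SE 0.22, 95% interval -2.16 to -1.23, adjusted p = 0.0016 by limma with Benjamini-Hochberg adjustment), a 3.23-fold lower signal in OX.7.5. All 3 OX.7.5 arrays lay below the 3 Col-0 arrays, and the p-value was the lowest of all genes in that comparison. Of all genes 0.852% passed there. In -S roots, where both lines were dim, the difference was -0.17 (95% interval -0.64 to 0.29). In nS shoots it was also -0.17 (95% interval -0.64 to 0.29, adjusted p = 0.90). There all 3 OX.7.5 arrays and 2 of the 3 Col-0 arrays were below their array's median, so this shoot value rests on weak signals. The line difference of AT3G46880 in nS was therefore smaller in size in shoots than in roots, by 1.52 (SE 0.32, adjusted p = 0.019 by limma), a comparison of organs that 0.737% of all genes passed and none of the other 11 genes did. At an unadjusted p below 0.05, 4 of the 12 genes were called in it, against 12.9% of all genes. The same comparison of organs in -S called none of the 12 genes, against 0.0121% of all genes with adjustment, and none with an unadjusted p, against 4.9% of all genes. That organ difference lost its call without OX.7.5 shoots nS replicate 2 (1.46, adjusted p = 0.058), Col-0 roots nS replicate 2 (1.27, adjusted p = 0.053) or OX.7.5 roots nS replicate 1 (1.39, adjusted p = 0.065), whereas the difference in nS roots kept it under all settings tried.

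AT2G24580 in nS shoots differed by -0.79 (SE 0.18, 95% interval -1.16 to -0.41, adjusted p = 0.021 by limma), a 1.73-fold lower signal in OX.7.5, with no overlap of arrays. All 3 OX.7.5 nS shoot arrays were below their array's median and no Col-0 one was, so the size of this ratio is uncertain. In this comparison 1.7% of all genes passed. The call was lost in a fit of the shoot arrays alone (adjusted p = 0.10), and also without Col-0 shoots nS replicate 1 (-0.64, adjusted p = 0.14) or replicate 3 (adjusted p = 0.078) and without OX.7.5 shoots nS replicate 1 (adjusted p = 0.054) or replicate 2 (adjusted p = 0.12). In -S shoots the lines read 2.64 and 2.65 on average in OX.7.5 and Col-0, a difference of -0.01 (95% interval -0.39 to 0.36).

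Of the 12 genes, 11 were lower in OX.7.5 than in Col-0 in nS shoots, where 50.7% of all genes were, and their median was -0.21 against 0.00 for all genes. The 12 were chosen with these nS arrays and all genes were not, so the counts here are not read as a trait of the 12. The paper reports that genes lowered by overexpression and genes lowered by -S overlap, in roots as well as in shoots. An unadjusted p below 0.05 was reached by 5 of the 12, against 10.8% of all genes. These were AT2G24580, AT1G31710 (-1.11, SE 0.33, adjusted p = 0.11), AT4G12980 (-0.55, adjusted p = 0.18), AT1G17430 (-0.53, adjusted p = 0.37) and AT5G48900, the one gene above 0 (0.50, adjusted p = 0.27). All 5 had no overlap between the arrays of the lines, as had 14.5% of all genes. AT1G31710 passed at an adjusted p of 0.013 without Col-0 shoots -S replicate 2, 0.015 without Col-0 shoots -S replicate 3 and 0.043 without Col-0 shoots nS replicate 3. In nS roots 6 of the 12 genes were lower and 6 higher in OX.7.5, with a median of -0.01, and 2 reached an unadjusted p below 0.05 against 13.9% of all genes. Beside AT3G46880 this was AT3G07310, at 0.52 (adjusted p = 0.26). In nS roots the arrays of the lines did not overlap for 3 of the 12 genes, against 15.3% of all genes.

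In -S the line differences of the 12 genes lay between -0.40 and 0.48 in shoots, where 0.0785% of all genes passed an adjusted p of 0.05. At an unadjusted p below 0.05 only DJ1F, at 0.48 (adjusted p = 0.70), was called in -S shoots, against 6.16% of all genes. In -S roots the differences lay between -0.37 and 0.29, no gene of the array passed with limma and adjustment, and none of the 12 had an unadjusted p below 0.05, against 3.82% of all genes. The arrays of the lines did not overlap for 0 of the 12 genes in -S shoots, against 10.4% of all genes, and for 2 of the 12 in -S roots, against 11.8%. At the thresholds of the methods, a fold of at least 1.5 with an unadjusted p below 0.05, 2 of the 12 genes differed between the lines in nS shoots (3.21% of all genes) and 1 in nS roots (3.24%). None did in -S shoots (1.19%) or -S roots (0.616%), and 4 differed between organs in nS (8.2%) and none in -S (2.71%). Whether the line differences themselves changed with the sulfur supply was not tested, since the rule used those responses. As a description, the -S difference was smaller in size in OX.7.5 than in Col-0 for 8 of the 12 genes in shoots (median gap 0.40, range -0.25 to 0.90) and for 7 of the 12 in roots (median gap 0.04, range -0.53 to 1.52). Over all genes, too, fewer were at -0.8 or lower in OX.7.5 shoots (2.92%) than in Col-0 shoots (5.6%), with 4.19% and 4.24% in roots.

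**Figure D3:**
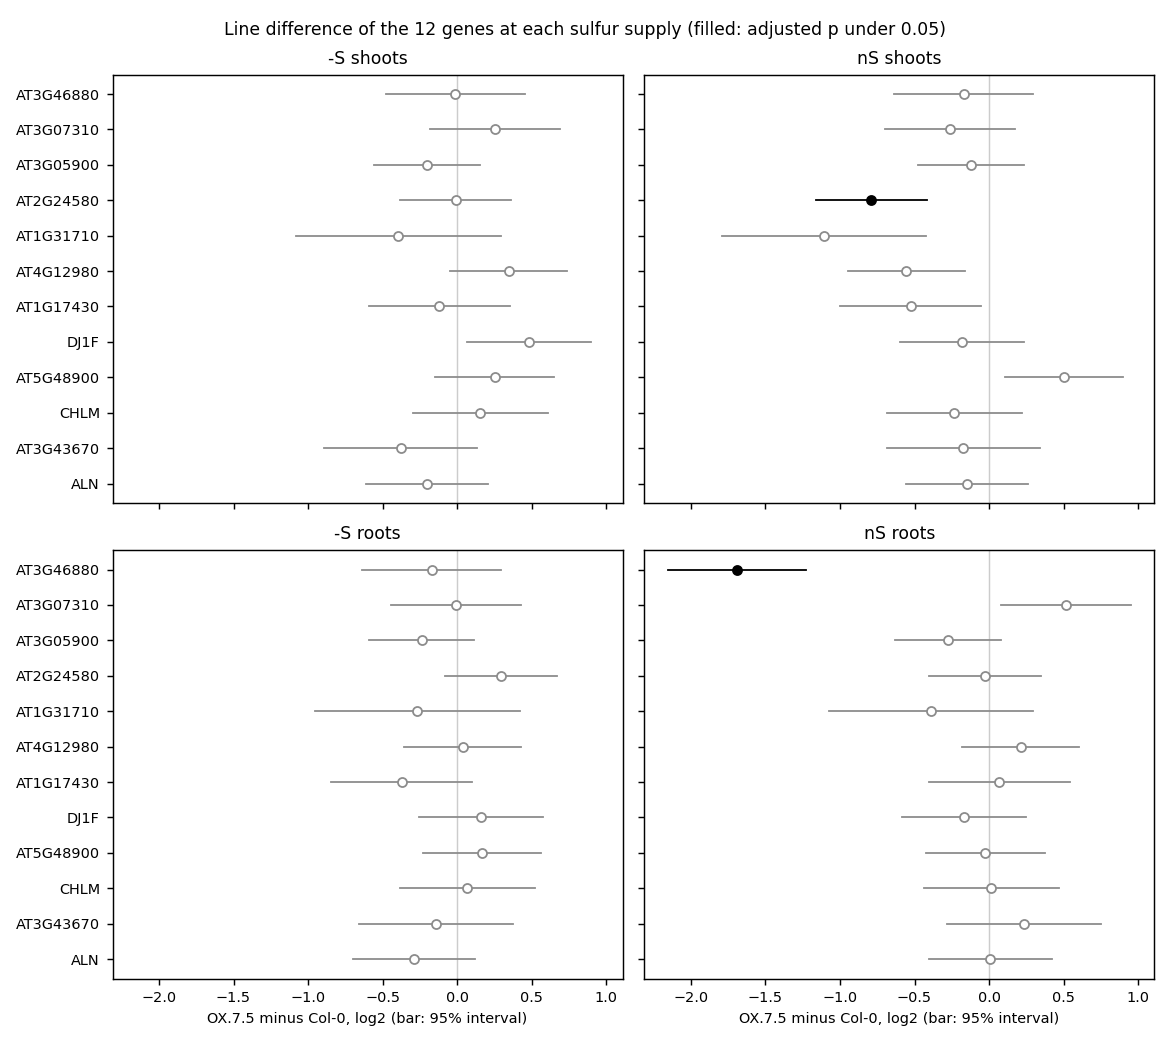
OX.7.5 minus Col-0 (log2, x axis; bars are 95% intervals from limma) of the 12 genes (y axis) in -S (left) and nS (right), shoots above and roots below, with filled points where the adjusted p is under 0.05. The filled points are AT2G24580 in nS shoots (-0.79) and AT3G46880 in nS roots (-1.69), and no point in -S is filled.

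The pathways of the 3 genes with a name were followed in the other genes that the annotation resolves, tested with limma over all genes. Chlorophyll synthesis was covered thinly, with 6 of 24 listed genes measured, CHLM among them. Of the other 5, 2 were lower under -S in OX.7.5 shoots and 3 in Col-0 shoots at an adjusted p below 0.05, with medians of -0.46 and -0.50. Lower genes made up 7.37% and 12.7% of all genes in these comparisons. HEME1 and HEME2, which encode uroporphyrinogen III decarboxylases, fell in both lines. HEME1 averaged 6.92 in -S and 7.76 in nS in OX.7.5 shoots (-0.84, adjusted p = 0.00042), and 6.92 in -S and 7.88 in nS in Col-0 shoots (-0.97, adjusted p = 4.1e-05). HEME2 fell by 0.99 in OX.7.5 shoots (adjusted p = 0.00077) and by 1.07 in Col-0 shoots (adjusted p = 0.00018). GSA1, a glutamate-1-semialdehyde aminotransferase gene, fell in Col-0 shoots (-0.48, adjusted p = 0.0063) and was at -0.30 in OX.7.5 shoots (adjusted p = 0.14).

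In roots, of the other 5 genes of this pathway, none was lower and 1 higher in OX.7.5 and 1 was lower and 1 higher in Col-0. HEMA2, a glutamyl-tRNA reductase gene at the entry to the pathway that heme synthesis shares, rose under -S by 0.92 in OX.7.5 roots (adjusted p = 0.0020) and by 0.93 in Col-0 roots (adjusted p = 0.0018), where higher genes made up 10.5% and 12.5% of all genes. HEME1 and HEME2 did not pass in roots, with values between -0.33 and -0.02. PORB, a protochlorophyllide oxidoreductase gene, was at -0.57 in Col-0 roots at the edge of the threshold (adjusted p = 0.0495), a call that 18 of the 24 fits without 1 array and the fit of the root arrays alone lost. The leaf markers moved with CHLM in part of the groups: of RCA and PRK, 1 was lower at an adjusted p below 0.05 in OX.7.5 shoots, 2 in Col-0 shoots and 1 in the roots of either line. PRK fell by 0.69 in the shoots of both lines, and RCA was at -0.33 in OX.7.5 shoots (adjusted p = 0.16) and fell by 0.54 in Col-0 shoots (adjusted p = 0.0083). In roots RCA fell by 0.48 in OX.7.5 and by 0.44 in Col-0, whereas PRK was at 0.28 in OX.7.5 and 0.07 in Col-0 and did not pass. Both markers averaged below the root array medians, so these root values rest on weak signals. The part of the leaf markers in the CHLM, HEME1 and HEME2 differences was not tested.

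Purine breakdown had 3 of 11 listed genes measured, and beside ALN these were AAH, encoding allantoate amidohydrolase, which acts on the product of allantoinase, and UGLYAH, encoding ureidoglycine aminohydrolase, which acts further on. In roots both fell in both lines, where lower genes made up 9.89% of all genes in OX.7.5 and 10.1% in Col-0. AAH fell by 1.03 in OX.7.5 roots (SE 0.20, adjusted p = 0.00046) and by 0.72 in Col-0 roots (SE 0.20, adjusted p = 0.011). UGLYAH fell by 1.22 in OX.7.5 roots (SE 0.14, adjusted p = 5.9e-07) and by 0.87 in Col-0 roots (SE 0.14, adjusted p = 5.6e-05). In shoots UGLYAH fell by 0.57 in both lines (adjusted p = 0.0064 in OX.7.5 and 0.0039 in Col-0), whereas AAH was at -0.10 in OX.7.5 and 0.04 in Col-0 (adjusted p = 0.83 and 0.93). Of the root markers, PYK10 also fell in OX.7.5 roots (-1.36, adjusted p = 0.048) and was at -0.98 in Col-0 roots (adjusted p = 0.16), while EXPA7 was at 0.11 and -0.37 in OX.7.5 and Col-0 roots, and their part was not tested. The AAH call in Col-0 roots was lost without Col-0 roots nS replicate 2 (adjusted p = 0.079), nS replicate 3 (0.064) or -S replicate 1 (0.055). UGLYAH in OX.7.5 shoots lost its call without OX.7.5 shoots -S replicate 2 (adjusted p = 0.062).

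In the DJ-1 family, 3 of 6 listed genes were measured, and the other 2 went opposite ways in shoots, where higher genes made up 7.77% of all genes in OX.7.5 and 11.8% in Col-0. DJ1D fell by 0.52 in OX.7.5 shoots (adjusted p = 0.0069) and by 0.87 in Col-0 shoots (adjusted p = 1.5e-05). YLS5, also named DJ1E and first described among transcripts of yellowing leaves, rose by 1.49 in OX.7.5 shoots (adjusted p = 6.3e-05) and by 1.27 in Col-0 shoots (adjusted p = 0.00019). In roots DJ1D fell by 0.46 in OX.7.5 (adjusted p = 0.013) and was at -0.26 in Col-0 (adjusted p = 0.17). YLS5 was at 0.35 and 0.33 in OX.7.5 and Col-0 roots (adjusted p = 0.36 in both). The DJ1D calls in OX.7.5 were lost without shoots -S replicate 2 (adjusted p = 0.057), roots nS replicate 3 (0.072) or roots -S replicate 3 (0.073).

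**Figure D4:**
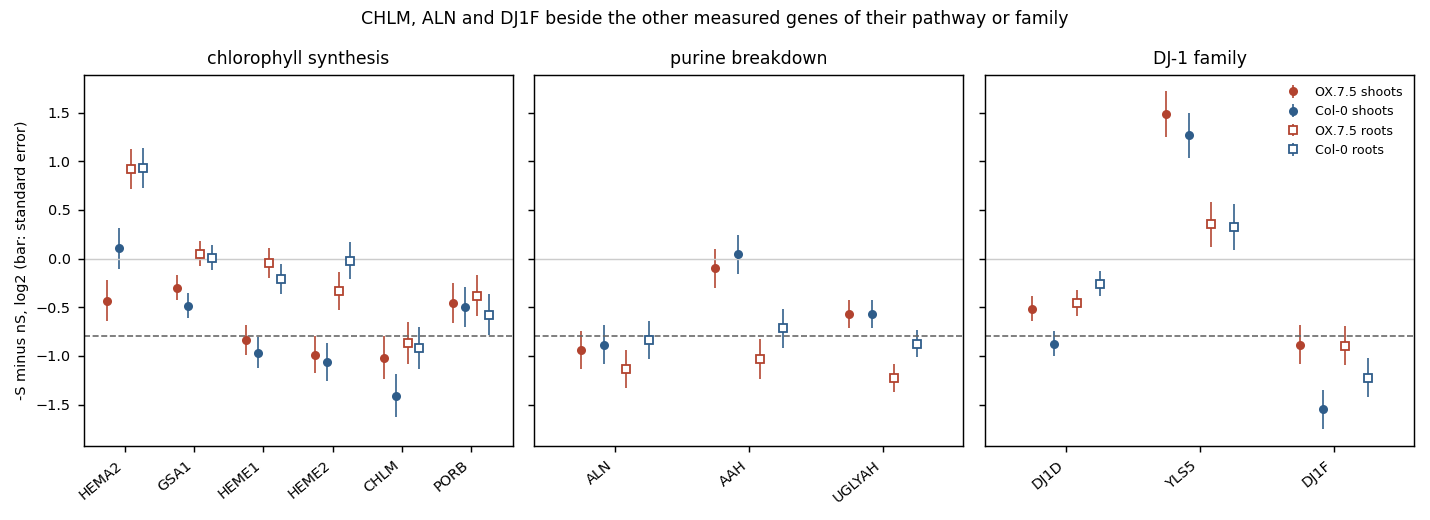
Difference -S minus nS (log2, y axis; bars are standard errors from limma) of CHLM, ALN and DJ1F and of the other measured genes of chlorophyll synthesis, purine breakdown and the DJ-1 family, in shoots (filled circles) and roots (open squares) of OX.7.5 (red) and Col-0 (blue); the dashed line is the threshold of -0.8. AAH lies near 0 in shoots (-0.10 and 0.04) and at -1.03 and -0.72 in roots, and HEMA2 lies above 0 in roots (0.92 and 0.93).

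None of the 12 genes was on the other gene lists compared, which covered the circadian clock, cytokinin, sulfate and nitrate assimilation, glucosinolate synthesis, sugar starvation, growth hormones, cellulose synthesis, aquaporins and iron. Few genes of those lists were measured, and no aquaporin was. For sulfate uptake and assimilation, 3 of 29 listed genes were measured, and in each comparison 1 was lower and 1 higher at an adjusted p below 0.05, but not the same genes in shoots and roots. Over all genes, 7.37% to 12.7% were lower and 7.77% to 12.5% higher in these comparisons. APS4, an ATP sulfurylase gene, was the higher gene in shoots (0.71 in OX.7.5 and 0.91 in Col-0) and the lower one in roots (-1.33 in OX.7.5 and -0.81 in Col-0). SIR, encoding sulfite reductase, was the lower gene in shoots (-0.82 in OX.7.5 and -0.62 in Col-0), and APS3, also an ATP sulfurylase gene, was the higher one in roots (0.79 in OX.7.5 and 1.03 in Col-0). The nitrate uptake and assimilation list had 3 of 24 listed genes measured: AT3G25790, AT1G68670 and AT1G25550. They are given by locus only, with no role assigned, so no change in nitrate uptake or assimilation is read from them. All 3 were lower in OX.7.5 roots and 1 in Col-0 roots, where lower genes made up 9.89% and 10.1% of all genes. In shoots none of the 3 was lower, and AT1G25550 was higher in OX.7.5 (0.61, adjusted p = 0.0022) and in Col-0 (0.96, adjusted p = 7.2e-06), where higher genes made up 7.77% and 11.8% of all genes. Glucosinolate synthesis had 4 of 34 listed genes measured, of which 2 were lower in OX.7.5 shoots, 3 in Col-0 shoots, 1 in OX.7.5 roots and 2 in Col-0 roots, and none higher. Lower genes made up 7.37%, 12.7%, 9.89% and 10.1% of all genes in these comparisons, in the same order.

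Of 24 genes adjoining the 12 by locus order, 16 were measured, and none was at -0.8 or lower in all 4 comparisons. With 0.0967% of all genes at that level, 16 genes are too few to show whether neighbours share the pattern. The medians of these neighbours were -0.15 and -0.13 in OX.7.5 and Col-0 shoots and 0.01 and -0.08 in OX.7.5 and Col-0 roots. The threshold was reached in at least 1 comparison by 2 of the 16, while 14647 of all 16554 genes reached it in none. These 2 were AT3G07320, beside AT3G07310, at -1.12 in OX.7.5 shoots, and AT4G25090, beside CHLM, at -1.11 in OX.7.5 roots and -1.25 in Col-0 roots.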

How the data were processed

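The values used are the log2 signals that the authors deposited after RMA, which corrects background, quantile-normalizes arrays and summarizes probe sets; Partek was the tool, with versions not given in the sources used here. No value was missing. Of 28583 probe sets, 16746 had exactly 1 gene in the platform annotation, 758 several and 11079 none. For each gene the probe set with the highest mean was kept (16554 genes, 16418 matched to the TAIR10.1 gene table by Entrez identifier). R 4.3.3 and limma 3.58.1 fitted 1 mean per group to all 24 arrays (16 residual degrees of freedom, empirical Bayes), with Benjamini-Hochberg adjustment over all genes, and the fit was tested on simulated data. Replicates are biological per the labels, and the number of arrays limits the precision.

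The members and all lists were chosen with earlier results of these data known, and the chlorophyll, purine and DJ-1 lists were added once the members were known. Named were members with a symbol, the 8 with the lowest mean difference, those nearest to the threshold on either side, those called between lines, pathway members and chromosomal neighbours. Other members and genes were named after their values were seen. Alternatives were other probe-set choices, scalings, thresholds, filters, priors, a replicate block and leaving out each array. Promoter sequences were not analysed here.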

Additional observations from a re-analysis of the deposited data

Results flagged for a closer look

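AT3G46880 had a line difference in nS that was not the same in shoots and roots. OX.7.5 minus Col-0 was -0.17 in shoots and -1.69 in roots (log2), and the shoot value minus the root value was 1.52 (SE 0.32, adjusted p = 0.019 by limma over all genes). In roots all 3 OX.7.5 arrays were below all 3 Col-0 arrays, and in shoots the arrays overlapped. Most of those shoot arrays were below their array's median, where signals are weak. Single outlying arrays were not looked for, since all groups had 3 arrays.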

How the results depend on the processing

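Genes set aside by symbol or locus are not counted in this paragraph. The number of other genes meeting the rule was 32 at a threshold of -0.6 (all 12 among them) and 2 at -1 (AT3G05900 and AT2G24580). EXPB1, EXPB3, SWEET16 and AT5G24490, all set aside, were also at -1 or lower in all 4 comparisons. The number was 11 with the mean of a gene's probe sets and 12 with arrays centred on their median or quantile normalized within organ, and 8 to 15 with each array left out. Of 144 member differences under those 3 settings, 4 moved by over 1 SD, all of AT3G05900, and 0 changed sign.

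Genes of the 12 called between lines in nS shoots numbered 0 with the arrays of 1 organ alone and 2 at the thresholds of the methods (fold of 1.5, unadjusted p), and 0 to 2 with each array left out. For the organ difference in nS they were 4 at those thresholds and 0 to 1 with arrays left out. Over all genes, the fit of 1 organ alone called 117 in nS shoots, 0 in -S shoots and 11 in nS roots, against 281, 13 and 141 with all arrays. The thresholds of the methods called 531 in nS shoots, 197 in -S shoots, 537 in nS roots and 102 in -S roots, and 1357 in nS and 449 in -S for the difference between organs. In nS roots 255 genes were called without dim genes (9782 kept) and 214 with an intensity trend. In -S the difference between organs had 1 call without dim genes. With each array left out, calls over all genes ranged from 152 to 421 in nS shoots, 2 to 30 in -S shoots, 24 to 732 in nS roots and 0 to 3 in -S roots, and from 66 to 307 in nS and 0 to 8 in -S for the difference between organs. The cause was not tested.

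Within an organ, replicates of the same number showed little shared deviation (r of -0.0785 to 0.112 in roots and -0.239 to 0.143 in shoots). The arrays were therefore not treated as paired. Pairing of shoot and root samples of the same number was not checked, and the tests between organs treat them as independent. With a replicate block, AT2G24580 in nS shoots had an adjusted p of 0.013, AT3G46880 in nS roots 0.0031 and its difference between organs 0.028, and 1 gene in place of 2 was called for the difference between organs in -S. The block changed no call among the 12 genes.

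No array gives detection calls, so the ratios of probe sets below the array median are least certain. Gene coverage is limited to probe sets with a single annotated gene, and the 3 pathway lists rest on few genes. With 3 arrays a group, intervals are wide: that of AT1G31710 in -S shoots ran from -1.08 to 0.29.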
